A study of Mus musculus with 2 samples.

Results

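Neutrophils of vehicle-treated mice bearing 4T1 liver metastases were compared between the 2 single-cell RNA libraries of the study, one made from liver leukocytes and one from spleen leukocytes. 4T1 is a mouse mammary carcinoma line. Female BALB/cAnNCrl mice, young adults according to the study's methods, received the tumor cells through a splenic pole that was then removed, so the spleen of these mice was a partial spleen. Cells were taken some days after infusion of the vehicle or of CBL0137, a chromatin-destabilizing drug, with the mice of a group pooled. According to the study's methods, the infusion went into the hepatic artery through a surgically placed catheter. Each library mixed 3 such pools (vehicle, low dose and high dose of CBL0137), which were told apart by antibody hashtags. The vehicle group therefore held 1 pool per library, so there was no replicate check of any difference between the libraries and no test or p-value was computed.

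The tissue label and the deposited file name went against each other for both libraries. The library labelled spleen was deposited in files named for liver, and the library labelled liver in files named for spleen. Over all barcodes, 17 hepatocyte transcripts (albumin, apolipoproteins, fibrinogen chains and others, without Trf, which neutrophils also express) summed to 312.0 counts per 1000000 UMIs (CPM) in the library labelled spleen and to 3.47 CPM in the library labelled liver, where 11 of the 17 were at 0. The 10 Kupffer cell markers summed to 2220.0 and 121 CPM and the 10 markers of liver sinusoidal endothelium to 596 and 8.20 CPM, again with the higher value in the library labelled spleen. The 7 B cell markers went the other way, with 672 and 6556 CPM. The markers thus followed the file names and not the labels, so the libraries are called the liver-file library (labelled spleen) and the spleen-file library (labelled liver) below. Every log2 ratio is that of the CPM in the liver-file library over the CPM in the spleen-file library.

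Members were selected on measured values. A barcode was taken as a vehicle neutrophil when S100a8 and S100a9, the subunits of calprotectin, together held at least 10% of its gene UMIs (unique molecular identifiers, 1 per captured transcript). In addition, the vehicle hashtag had to hold the most hashtag UMIs, at least 10 and at least 3 times the next hashtag. The rule found 1561 of the 14421 barcodes of the series: 296 of 4830 in the liver-file library (labelled spleen) and 1265 of 9591 in the spleen-file library (labelled liver). The hashtag oligonucleotides are shown because their counts alone put a cell in the vehicle group or in one of the dose groups.
A0301 (vehicle): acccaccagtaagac
A0305 (low dose of CBL0137): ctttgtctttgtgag
A0310 (high dose of CBL0137): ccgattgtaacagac

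Neutrophils are short-lived granulocytes that mature in the bone marrow and, in tumor-bearing animals, also accumulate in spleen and liver, where many studies call them granulocytic myeloid-derived suppressor cells. They make their granules in order: promyelocytes transcribe the primary (azurophil) granule proteases, later stages transcribe the secondary and tertiary granule proteins, and mature cells carry chemokine receptors and inducible cytokines. Activated neutrophils release chemokines that call in further neutrophils, and in low oxygen they draw on glycolysis.

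The vehicle neutrophils of the 2 libraries resembled each other in depth and in their defining transcripts. Median depth was 7602 UMIs and 1407 genes per cell in the liver-file library and 7056 UMIs and 1600 genes in the spleen-file library, and the summed UMIs were 2963499 and 15633439. The liver-file values therefore rest on fewer cells and carry the wider intervals. S100a8 and S100a9 held a median of 27.2% and 27.7% of a cell's UMIs, which is what the rule chose. Of the markers the rule did not use, Ly6g (a surface protein of mouse neutrophils) was at 468 and 565 CPM, Retnlg at 7118 and 8155 CPM, and Csf3r (the G-CSF receptor) at 321 and 398 CPM. In T or B cell barcodes of the same libraries, Ly6g was at 11.4 and 1.68 CPM. All 12 neutrophil markers checked were higher in the neutrophils than in the lymphocyte barcodes of their own library, and the name was kept. Lymphocytes were the only cells compared, so this check does not set the neutrophils apart from monocytes or early granulocyte stages.

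At the edge of the rule, 23 liver-file and 77 spleen-file cells lay just inside, with S100a8 and S100a9 at 10% to 12% of UMIs, and 26 and 85 barcodes lay just outside, at 8% to 10%. Barcodes just inside had 89.0 and 88.3 CPM of Ly6g, and those just outside had 40.2 and 61.4 CPM. Retnlg was at 4961 and 5817 CPM inside and at 1611 and 4634 CPM outside. Csf3r was at 769 and 1048 CPM inside and at 293 and 1364 CPM outside, so it was higher outside in the spleen-file library. Il1b was at 3690 and 1691 CPM inside and at 1767 and 2866 CPM outside. Cxcl2 was at 6417 and 99.3 CPM inside and at 2486 and 177 CPM outside. The cut thus left out spleen-file barcodes with neutrophil transcripts. The vehicle hashtag was the highest in 16 liver-file and 99 spleen-file barcodes that passed the S100 threshold but missed the 3-fold margin. The libraries shared 15 cell barcodes, and no vehicle neutrophil barcode was a vehicle neutrophil in both.

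Across genes the neutrophils of the libraries were close, with a small set of genes far apart. Of 4981 genes with at least 200 UMIs over both libraries, S100a8 and S100a9 left out, 82 were at least 2-fold higher in the liver-file library (1.65%) and 77 were at least 2-fold lower (1.55%). The median log2 ratio over these genes was -0.06, and 43.8% of them had a ratio above 0. Scaling to the UMIs of all but the 20 most abundant genes moved that median to -0.17 and the counts to 65 higher and 115 lower, and averaging each cell's CPM gave 123 and 237. The UMI minimum applied to the sum over both libraries, and the spleen-file neutrophils held most of the UMIs. Genes high only there therefore passed at a lower CPM than genes high only in the liver-file library. The balance of the counts depended on this minimum: at 1000 UMIs 33 genes were higher and 12 lower, and at 50 UMIs the shares were 2.49% and 3.74%. Intervals given with values are 95% intervals and cover counting error alone, since 1 pool per group leaves the spread between mice unmeasured. Those of levels and ratios also leave out the clustering of a gene's UMIs in few cells.

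**Figure D1:**
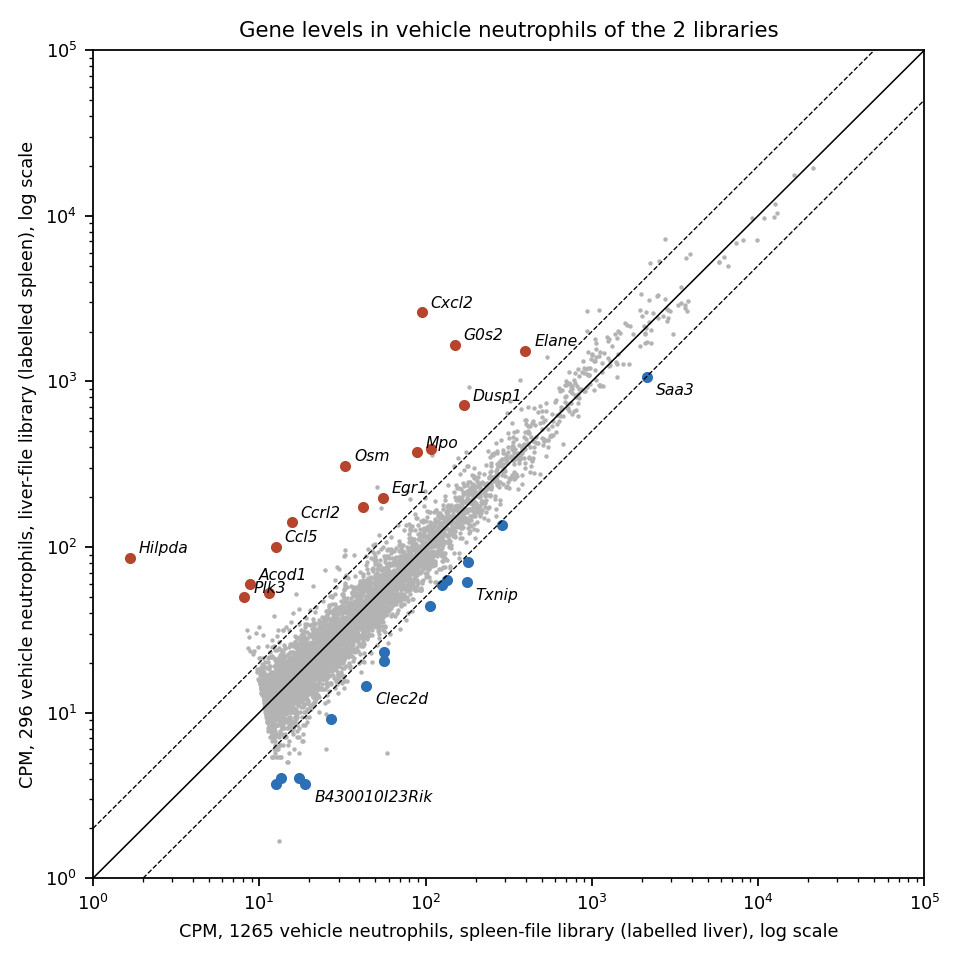
Level of each of the 4981 tested genes in vehicle neutrophils, in CPM on log axes, with the spleen-file library (labelled liver) on the x axis and the liver-file library (labelled spleen) on the y axis. The solid line marks equal levels, the dashed lines a 2-fold difference, red points the 15 highest and blue points the 15 lowest genes by the interval limit nearest 0. Most genes lie between the dashed lines, while Hilpda, Cxcl2 and G0s2 lie far above them.

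Ligands of the receptor Cxcr2 were higher in the liver-file neutrophils. Cxcl2, a chemokine that attracts neutrophils through Cxcr2, had 7767 UMIs in the 296 liver-file neutrophils and 1484 UMIs in the 1265 spleen-file neutrophils. Its level was 2621 CPM (2563 to 2680) in the liver-file library (labelled spleen) and 94.9 CPM (90.2 to 99.9) in the spleen-file library, a log2 ratio of 4.79 (4.71 to 4.87). The related ligand Cxcl3 was under the 200-UMI minimum and had 163 and 3 UMIs, a log2 ratio of 8.16 (6.59 to 10.46). Cxcl1 had 18 UMIs against 0, at least 31.7-fold higher when the 0 is set at 3 counts for the library. All 3 ligands signal through Cxcr2, and all 3 were higher in the liver-file neutrophils. Cxcl2 was also higher outside the neutrophils. Vehicle barcodes with S100a8 and S100a9 under 8% of UMIs, 498 in the liver-file and 2010 in the spleen-file library, held 1082 and 14.3 CPM of it. The gap between libraries was thus not particular to neutrophils, and the part of other cells' RNA in the 3 ligands was not tested.

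Cxcr2 itself, the receptor that neutrophils use to leave the marrow and enter tissue, was lower there. It had 822 UMIs (277 CPM) in the liver-file and 7578 UMIs (485 CPM) in the spleen-file library, a log2 ratio of -0.81 (-0.91 to -0.70) that did not reach 2-fold. Of the 16 chemokine ligands listed, 4 reached the UMI minimum. Of these, 3 (Cxcl2, Ccl5 and Ccl4) were past 2-fold higher, beside 1.65% of all tested genes. Ccl6 was at 255 and 270 CPM, a log2 ratio of -0.08 (-0.19 to 0.03). The median over the 4 was 2.36, beside -0.06 over all tested genes, and it rested on few genes: it was 0.72 with a hashtag margin of 10 times, 0.58 among cells of 2000 to 10000 UMIs, 1.03 without barcodes with 2 other-cell UMIs, and 1.05 both at S100 genes of at least 20% and with other-cell markers under 0.5%.

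Ccl5 and Ccl4 were a different case from Cxcl2, because few cells carried them. The 5% of neutrophils with the most UMIs of Ccl5, a chemokine typical of T and NK cells, held 100% of its UMIs in both libraries, and T or B cell barcodes held 2894 and 390 CPM against 100.2 and 12.5 CPM in the neutrophils. Under a stricter hashtag margin (10 times the next) its log2 ratio turned from 3.00 to -1.83. The top 5% held 88.7% and 100% of the Ccl4 UMIs. For Cxcl2 that share was 23.8% in the liver-file and 49.6% in the spleen-file neutrophils.

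The promoter of Cxcl2 is shown because Cxcl2 carried the largest amount of RNA among the genes past 2-fold higher in this family, and because it is a textbook target of NF-kB. The window spans 250 bases before to 50 after the RefSeq start (GRCm38.p6, plus strand, chr5:90903649-90903948, overlapping the first exon of a gene annotated at 90903871 to 90905938), and capitals mark matches to a form of the kappa B site (3 G, any 2 bases, 3 T and 2 C), searched on both strands.
Cxcl2: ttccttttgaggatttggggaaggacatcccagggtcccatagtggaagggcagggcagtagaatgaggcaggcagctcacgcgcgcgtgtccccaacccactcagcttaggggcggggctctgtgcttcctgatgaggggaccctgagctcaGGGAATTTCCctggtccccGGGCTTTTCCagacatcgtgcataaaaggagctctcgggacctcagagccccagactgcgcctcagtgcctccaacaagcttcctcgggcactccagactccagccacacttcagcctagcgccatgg
The window held 2 matches. Of all 32851 mouse promoter windows of this length, 1.63% held at least 1 match, and among the 15 highest genes Cxcl2 was the 1 of 12 genes with a window that did.

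Genes of lipid storage and of the hypoxia response held the highest ratio of the tested genes. Hilpda, which inhibits the lipase ATGL and is induced by low oxygen, had 255 UMIs in liver-file and 26 UMIs in spleen-file neutrophils, at 86.0 CPM (75.8 to 97.3) and 1.66 CPM (1.09 to 2.44), a log2 ratio of 5.69 (5.11 to 6.34). The top 5% of cells held 62.0% and 100% of its UMIs. In T or B cell barcodes Hilpda was at 67.0 and 15.4 CPM, close to the neutrophil level in the liver-file library and above it in the spleen-file library, and the part of other cells' RNA in its value was not tested. G0s2, another inhibitor of the same lipase, had 4939 and 2345 UMIs, at 1667 and 150.0 CPM, a log2 ratio of 3.47 (3.40 to 3.55). Only Cxcl2 had a ratio between those of these 2 lipase inhibitors among the 15 highest genes. Plin2, a coat protein of lipid droplets, was at 200.4 and 210 CPM (log2 ratio -0.07, interval -0.19 to 0.06).

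Of 34 listed genes of hypoxia and glycolysis, 28 were tested, 8 were past 2-fold higher, 0 were past 2-fold lower and 24 had a ratio above 0. The median over the 28 was 0.65. Over all tested genes the median was -0.06, with 1.65% past 2-fold higher and 43.8% above 0. The list median was 0.41 at the low and 0.34 at the high dose. Summed over the list, the log2 ratio was 0.48 in vehicle neutrophils and 1.27 in vehicle T or B cell barcodes. Besides Hilpda, those past 2-fold included Vegfa, the angiogenic factor (29.4 and 10.5 CPM, log2 ratio 1.48, interval 1.09 to 1.87), and Bnip3, a mitophagy receptor (73.2 and 30.1 CPM, log2 ratio 1.28, interval 1.05 to 1.52). The glycolytic enzyme Tpi1 was at 218 and 99.7 CPM (log2 ratio 1.13). Gapdh, an abundant enzyme of the same pathway, differed by less, at 2684 and 1948 CPM (log2 ratio 0.46), and the glucose transporter Slc2a3 had a log2 ratio of -0.01. The lipid list, which also held Hilpda, had 2 of 12 tested genes past 2-fold and a median of -0.05. The other of these 2 was Apoe, an apolipoprotein, of whose UMIs the top 5% of cells held 84.2% and 79.8%.

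One promoter window of Hilpda is shown because Hilpda had the highest ratio and is a textbook target of the hypoxia-inducible factors. RefSeq lists 2 starts, whose windows overlap. The printed one holds a hypoxia response core and the other, which holds none, is not printed (GRCm38.p6, plus strand, chr6:29272376-29272675, within and just before a gene annotated at 29272488 to 29275446). Capitals mark ACGTG, the core of the hypoxia response element, and TGANTCA, a form of the AP-1 site, on either strand.
Hilpda: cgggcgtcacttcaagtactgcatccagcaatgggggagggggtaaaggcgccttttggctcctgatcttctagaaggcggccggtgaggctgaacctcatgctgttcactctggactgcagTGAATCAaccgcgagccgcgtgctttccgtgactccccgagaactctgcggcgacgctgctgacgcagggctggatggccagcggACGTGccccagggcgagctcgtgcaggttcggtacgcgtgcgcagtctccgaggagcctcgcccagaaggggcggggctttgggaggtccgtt
This window held 1 match to each. The ACGTG core is common: 19.6% of all windows held it, and 5 of the 12 highest genes with a window had it at one of their starts, as did 2 of 11 of the lowest genes. TGANTCA was in 7.81% of all windows. The G0s2 window held no match to these letters.

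Cytokine ligands and activation markers of myeloid cells were higher in part. Osm (oncostatin M, an IL-6 family cytokine) had 919 and 513 UMIs, at 310.1 and 32.8 CPM, a log2 ratio of 3.24 (3.08 to 3.40). Il1b, the inflammatory cytokine the study follows, had 2267 and 5012 UMIs, at 765 and 321 CPM, a log2 ratio of 1.25 (1.18 to 1.33). Both were past 2-fold higher in the liver-file neutrophils, together with Vegfa. These made 3 of the 8 tested cytokine ligands, beside 1.65% of all tested genes. For Il1b the ratio was past 2-fold in 11 of 13 alternatives and fell short of it at 2000 to 10000 UMIs (log2 ratio 0.75) and without barcodes with 2 other-cell UMIs (0.15, over 86 and 267 cells). In T or B cell barcodes Il1b was at 161 and 40.6 CPM, a log2 ratio of 1.98. Tnfsf14 (LIGHT) was past 2-fold lower, with 34 and 389 UMIs at 11.5 and 24.9 CPM (log2 ratio -1.12, interval -1.67 to -0.61), and Tnf, at 17.2 and 12.4 CPM, had an interval that reached 0 (log2 ratio 0.47).

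Acod1, the enzyme that makes itaconate in activated myeloid cells, had 176 and 138 UMIs, at 59.4 and 8.83 CPM (log2 ratio 2.75, interval 2.42 to 3.08). Ccrl2, a chemerin-binding surface receptor of activated neutrophils, had 419 and 245 UMIs, at 141 and 15.7 CPM (log2 ratio 3.17, interval 2.94 to 3.41). Ccrl2 was the 1 of 11 tested chemoattractant receptors past 2-fold, and the median over the 11 was -0.07. Cd14, the lipopolysaccharide co-receptor, was at 360.4 and 109.5 CPM (log2 ratio 1.72), and Trem1, an amplifier of myeloid inflammation, at 172 and 53.7 CPM (log2 ratio 1.68). Each of these 2 was likewise alone in its list in being past 2-fold higher, among 16 tested sensing receptors with a median of -0.16 and among 16 tested suppressive effector genes with a median of 0.04. Over all tested genes 1.65% were past 2-fold higher and the median was -0.06.

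Immediate early genes, which answer a stimulus within minutes and before new protein is made, were higher in part. Of 31 listed, 20 were tested, 4 were past 2-fold higher, 0 were past 2-fold lower, 14 were above 0, and the median was 0.45. Over all tested genes, 1.65% were past 2-fold higher, 1.55% past 2-fold lower and 43.8% above 0, with a median of -0.06. Dusp1, a MAP kinase phosphatase, had 2124 and 2669 UMIs, at 717 and 171 CPM (log2 ratio 2.07, interval 1.99 to 2.15). Egr1 had 588 and 866 UMIs, at 198 and 55.4 CPM (log2 ratio 1.84, interval 1.69 to 1.99), and Fos and Ier3 had log2 ratios of 1.05 and 1.12. In T or B cell barcodes Dusp1 had a log2 ratio of 3.00 and Egr1 of 1.74, and the part of other cells' RNA in the neutrophil values was not tested. The higher level in liver-file neutrophils was not shared by all members of this family.

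Jun, a subunit of AP-1 with Fos, was at 209.6 and 193 CPM (log2 ratio 0.12, interval -0.01 to 0.24), Socs3 was at 107 and 175 CPM (log2 ratio -0.71), and Btg1 had a log2 ratio of -0.44. For Jun the sign depended on the processing: the mean of each cell's CPM gave -0.55. Other genes of stress and growth arrest stood among the 15 highest: Plk3 (49.9 and 8.12 CPM, log2 ratio 2.62), Cdkn1a, the p21 inhibitor of cell division (53.0 and 11.4 CPM, 2.21), and Mt1, a metallothionein (175 and 42.0 CPM, 2.06). In T or B cell barcodes their log2 ratios were 2.21, 2.70 and 3.33. Of 12 tested genes of NF-kB subunits and feedback, 1 was past 2-fold higher, Nfkbiz (88.7 and 32.2 CPM, log2 ratio 1.46), and the median was 0.08. Over all tested genes 1.65% were past 2-fold higher, with a median of -0.06. Nfkbia, the inhibitor the study names, was at 343 and 302 CPM (log2 ratio 0.18, interval 0.08 to 0.28).

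**Figure D2:**
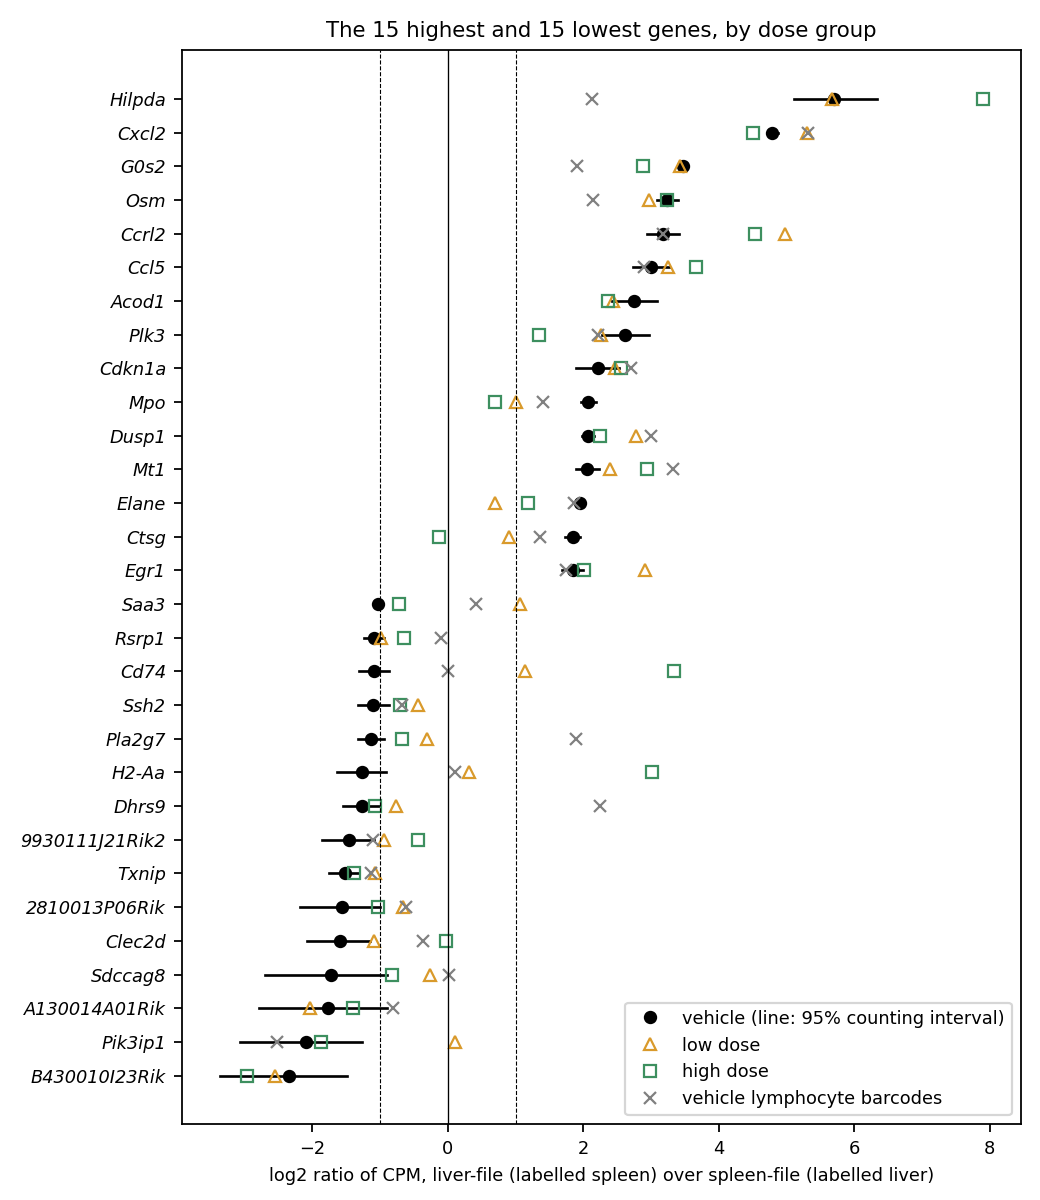
Log2 ratio of CPM, liver-file library (labelled spleen) over spleen-file library (labelled liver), for the 15 highest and 15 lowest genes in vehicle neutrophils (filled circles, with 95% counting intervals as lines), in low dose and high dose neutrophils of the same libraries (open triangles and squares) and in vehicle T or B cell barcodes (crosses). The dashed lines mark 2-fold. The higher genes lie to the right of 0 at all 3 doses except Ctsg at the high dose, and Saa3, Cd74, H2-Aa and Pik3ip1 change side in at least 1 dose group.

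Primary granule genes were higher in liver-file neutrophils and were held by a minority of cells. Of 8 tested primary granule genes 6 were past 2-fold higher, with a median of 1.42, beside 1.65% and -0.06 over all tested genes. Elane (neutrophil elastase) had 4541 and 6231 UMIs, at 1532 and 399 CPM (log2 ratio 1.94), Mpo (myeloperoxidase) was at 372 and 88.4 CPM (log2 ratio 2.07) and Ctsg (cathepsin G) at 389 and 108 CPM (log2 ratio 1.85). Prtn3 (proteinase 3) was at 2706 and 1103 CPM (log2 ratio 1.29). Lyz2, which stays on through maturation, was not among the 6 (2893 and 3285 CPM, log2 ratio -0.18). In T or B cell barcodes Mpo was at 449 and 170 CPM and Ctsg at 417 and 163 CPM, above the neutrophils of their own library. Elane was at 534 and 147 CPM there, below the neutrophils. The part of other cells' RNA in the neutrophil values was not tested.

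The top 5% of cells by Elane held 75.9% of its UMIs in the liver-file and 98.7% in the spleen-file neutrophils. Cells in which Mpo, Elane, Prtn3, Ctsg and Ms4a3 held at least 0.5% of UMIs made up 33 of 296 liver-file neutrophils (11.1%, exact Clopper-Pearson interval 7.80% to 15.3%) and 50 of 1265 spleen-file neutrophils (3.95%, 2.95% to 5.18%). These cells were deep, with a median of 19574 and 30460 UMIs, and held 22.2% and 10.2% of all neutrophil UMIs. Leaving them out was a setting chosen after seeing the data. The log2 ratios of Elane, Mpo and Ctsg, which set the cut, were then 0.97, 1.59 and -0.12. The cut removes UMIs of these genes by design, so the change in their ratios is no separate result. Without these cells the log2 ratios of Cxcl2, G0s2 and Hilpda, which did not set the cut, were 4.99, 3.72 and 5.94. The cell cycle genes, transcribed by the same early stages, had a median of 0.48 over 22 tested genes, of which 21 were above 0 and 1, Ube2c, was past 2-fold higher. Of all tested genes, 43.8% were above 0 and 1.65% past 2-fold higher.

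Secondary and tertiary granule genes were close over all cells, and their ratio depended on the depth of the cells. None of the 18 tested was past 2-fold in either direction, and the median was -0.14. Camp (cathelicidin) had 28827 and 169306 UMIs, at 9727 and 10830 CPM, a log2 ratio of -0.15, and Ltf (lactoferrin) was at 3060 and 3794 CPM, a log2 ratio of -0.31. Averaging each cell's CPM turned both to 0.20 and 0.03. Among cells of 2000 to 10000 UMIs the list median was 0.53, Camp was at 0.88 and Ltf at 1.26, and without barcodes with 2 other-cell UMIs Camp was at 0.91. Cells in which Camp, Ngp and Ltf held at least 1% of UMIs made up 119 of 296 liver-file (40.2%, interval 34.6% to 46.0%) and 411 of 1265 spleen-file neutrophils (32.5%, 29.9% to 35.1%), and 10 and 34 cells lay near that cut, from 0.8% to 1.2%.

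Within each side of that cut the leading genes kept their direction. Among cells with Camp, Ngp and Ltf under 1% of UMIs, Cxcl2 was at 6834 CPM in the liver-file and 222 CPM in the spleen-file library (log2 ratio 4.94), and among the granule-rich cells at 703 and 31.9 CPM (log2 ratio 4.46). Cxcl2 was thus higher in the cells under the cut in both libraries, and the gap between libraries was of similar size on both sides of the cut. The cut uses these 3 granule genes alone, so it does not set the stage of a cell. The log2 ratio of G0s2 was 4.51 in the former and 2.27 in the latter, that of Hilpda 6.24 and 4.82, that of Osm 3.38 and 3.15, and that of Il1b 1.30 and 1.76. In the granule-rich cells Il1b was at 86.9 and 25.7 CPM, against 2255 and 915 CPM in the others.

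The remaining genes that the study names differed by less than 2-fold over all vehicle neutrophils. Cd84, an adhesion receptor of the SLAM family, had 229 and 2199 UMIs, at 77.3 and 140.7 CPM (log2 ratio -0.86, interval -1.07 to -0.67), so that Cd84 was lower where Il1b was higher. Wfdc17, a secreted antiprotease-like protein and the most abundant of these genes, was at 9780.3 and 12422 CPM (log2 ratio -0.34), and Ly6g had a log2 ratio of -0.27. Csf1, the macrophage growth factor, was at 23.6 and 38.2 CPM (log2 ratio -0.69) and Fxyd5, a modulator of the sodium pump, at 476 and 572 CPM (log2 ratio -0.26). Cebpe, the transcription factor of granulocyte maturation, had a log2 ratio of 0.22 and Tuba1b, an alpha tubulin, of 0.68. Over the 13 alternatives tried, 4 of the 12 study genes kept their sign in all. Cd84 was past 2-fold lower in 5 of them (to -1.99) and Csf1 in 2 (to -2.09). Without barcodes with 2 other-cell UMIs Fxyd5 was at -1.15, Tuba1b at 1.57 and Jun at -1.44, Jun was at 1.68 in the granule-rich cells, and at 2000 to 10000 UMIs Ly6g was at 1.08.

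Cytokine receptors and adhesion molecules were mostly lower, by less than 2-fold, in the liver-file vehicle neutrophils. Of 17 tested receptors for colony-stimulating factors and cytokines, 4 were above 0 and 1 was past 2-fold lower, with a median of -0.23. That 1 was Kit, the stem cell factor receptor (39 and 464 UMIs, log2 ratio -1.17, interval -1.68 to -0.70), of whose UMIs the top 5% of cells held 79.5% and 70.3%. Il6ra, a subunit of the IL-6 receptor, was at 40.2 and 78.2 CPM (log2 ratio -0.96). Of 12 tested adhesion genes 1 was past 2-fold lower, the integrin subunit Itga4 (32.1 and 70.6 CPM, log2 ratio -1.14, interval -1.46 to -0.84), and the median was -0.18. Of all tested genes, 1.55% were past 2-fold lower and 43.8% above 0. The cytokine receptor median was 0.05 at the low and 0.13 at the high dose, so its sign was not kept. The adhesion median was -0.15 and -0.04.

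The lowest genes were mostly of low level and mixed function. Their low level follows in part from the UMI minimum, which genes high only in the spleen-file library passed at a lower CPM. Txnip, an inhibitor of thioredoxin and of glucose uptake, had 182 and 2761 UMIs, at 61.4 and 177 CPM, a log2 ratio of -1.52 (-1.75 to -1.31). Pik3ip1, a brake on PI3 kinase, had 12 and 270 UMIs (log2 ratio -2.09), and B430010I23Rik, the lowest of the 15 and a gene without a named function in the files, had 11 and 296 UMIs (log2 ratio -2.35, interval -3.37 to -1.49). Clec2d, a C-type lectin, was at 14.5 and 43.9 CPM (log2 ratio -1.60). With so few UMIs on the liver-file side, the counting intervals of these genes were wide.

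Saa3, an acute-phase serum amyloid A, was the most abundant of the 15, with 3129 and 33626 UMIs, at 1056 and 2151 CPM (log2 ratio -1.03, interval -1.08 to -0.97). Pla2g7, a lipase that inactivates platelet-activating factor, was at 81.7 and 180 CPM (log2 ratio -1.14) and Dhrs9, a retinol dehydrogenase, at 43.9 and 106 CPM (log2 ratio -1.27). The MHC class II genes Cd74 and H2-Aa were also among the 15 lowest, at log2 ratios of -1.09 and -1.27. Neutrophils have little of these, and the top 5% of cells held 92.0% and 93.4% of the Cd74 UMIs. Interferon-stimulated genes were near the median of all genes, with 0 of 23 tested past 2-fold and a median of -0.17.

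Transcripts of the mitochondrial genome were higher in the liver-file neutrophils as a group, and unevenly so. Of 13 tested, 8 were past 2-fold higher, all 13 were above 0 and the median was 1.21, beside 1.65%, 43.8% and -0.06 over all tested genes. The subunit mt-Nd2 of complex I was at 931 and 182 CPM (log2 ratio 2.35, interval 2.28 to 2.43) and mt-Co1 of complex IV at 5863 and 3874 CPM (log2 ratio 0.60), while mt-Atp8 had a log2 ratio of 0.20. Per cell, mitochondrial UMIs had a median of 2.46% in the liver-file and 1.12% in the spleen-file neutrophils. Leaving out cells with 10% or more mitochondrial UMIs kept 289 and 1264 cells and gave 85 genes higher and 82 lower. Nuclear genes of oxidative phosphorylation had a median of 0.29 over 73 tested genes and cytosolic ribosomal protein genes of 0.36 over 82, with 0 past 2-fold in either list, and the former turned to -0.19 among cells of 2000 to 10000 UMIs. In T or B cell barcodes the summed mitochondrial transcripts had a log2 ratio of 0.46 between the libraries, and their part in the neutrophil values was not tested.

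Other gene groups had medians short of 2-fold, some with members past it. Of 17 tested myeloid transcription factors 3 were past 2-fold higher, Egr1, Bhlhe40 (30.4 and 9.53 CPM, log2 ratio 1.67) and Ets2 (58.0 and 21.0 CPM, log2 ratio 1.46), with a median of 0.22. The lysosomal list had 1 of 17 past 2-fold higher, the protease Ctsl (65.8 and 32.8 CPM), and a median of 0.31, and the BCL2 family 1 of 10, the survival factor Bcl2l1 (26.7 and 13.2 CPM), and a median of 0.19. Of 12 tested MHC genes 2 were past 2-fold lower, Cd74 and H2-Aa, with a median of -0.15. Above 0 were 11 of 17 transcription factors, 15 of 17 lysosomal, 7 of 10 BCL2 family and 4 of 12 MHC genes. Of all tested genes, 1.65% were past 2-fold higher, 1.55% past 2-fold lower and 43.8% above 0.

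No gene was past 2-fold among 9 tested heat shock genes (median 0.47), 7 NADPH oxidase subunits (median -0.08), 13 genes of iron and heme (median -0.10), 4 Fc receptors (median -0.04) and 6 genes of the stefin A cluster of protease inhibitors (median -0.29). Of the 9 heat shock genes 8 were above 0, beside 43.8% of all tested genes. The sign of some medians changed with the scaling. The mean of each cell's CPM gave 0.08 for the stefin A cluster, 0.12 for the secondary and tertiary granules, 0.03 for iron and heme and 0.02 for lipid handling. Leaving the 20 most abundant genes out of the scaling gave -0.03 for NF-kB and -0.08 for the suppressive effector genes, and centring the ratios gave 0.02 for the Fc receptors.

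**Figure D3:**
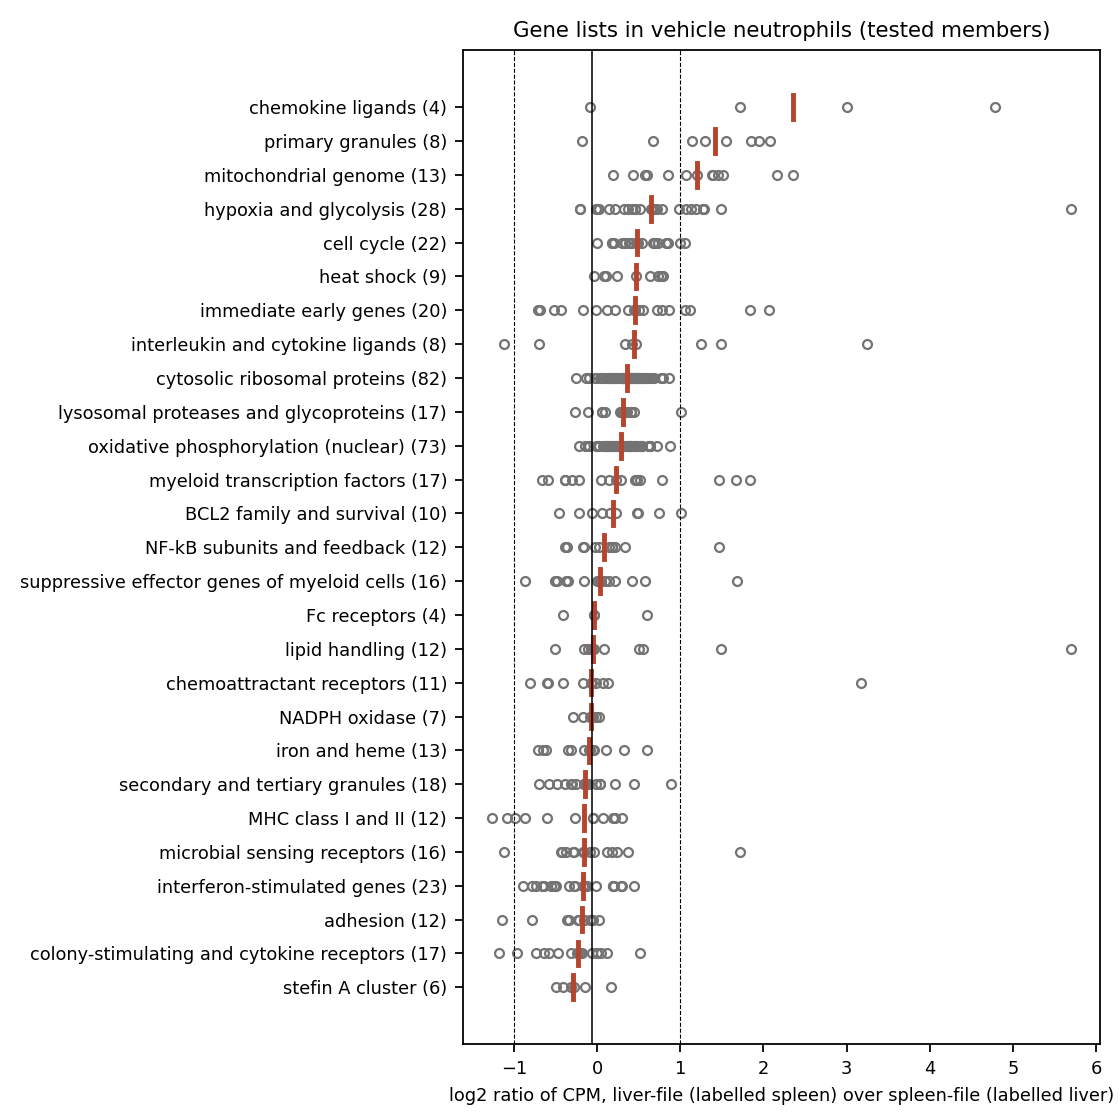
Log2 ratio, liver-file library (labelled spleen) over spleen-file library (labelled liver), of each tested member (open circles) of 27 gene lists in vehicle neutrophils, with the list median as a red bar and the number tested in parentheses. The solid vertical line marks the median over all tested genes (-0.06) and the dashed lines 2-fold. Chemokine ligands, primary granules and the mitochondrial genome have medians past 2-fold here, but the chemokine median is 0.72 with a hashtag margin of 10 times and 0.58 at 2000 to 10000 UMIs, and the primary granule median is 0.76 without cells rich in those genes.

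The share of cells in which a gene was seen was compared after each cell was thinned to 500 UMIs, which left out no cell of either library. Cxcl2 was then detected in 148 of 296 liver-file neutrophils (44.2% to 55.8%) and in 67 of 1265 spleen-file neutrophils (5.30%, 4.13% to 6.68%). G0s2 was detected in 48.3% (42.5% to 54.2%) and 8.14% (6.69% to 9.79%), and Osm in 16.9% and 1.90%. Without thinning Cxcl2 was seen in 222 of 296 and in 395 of 1265 (31.2%). Cxcl2 and G0s2 were thus seen in about as many liver-file neutrophils as each other and in few spleen-file neutrophils.

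For Il1b the shares were close, at 30.7% (25.5% to 36.3%) and 27.2% (24.8% to 29.7%), although its CPM differed 2.39-fold, and without thinning the order was the other way, at 50.7% and 62.9%. The difference in Il1b between the libraries was therefore not detectable as a share of cells at this depth. Dusp1 was detected in 38.2% and 15.9%, and Txnip in 5.41% (3.12% to 8.63%) and 14.3% (12.4% to 16.4%). Camp was detected in 38.2% and 31.2%, and Ly6g in 15.9% and 15.3%.

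As a background, T or B cell barcodes of the vehicle group, 93 in the liver-file and 1217 in the spleen-file library with a median of 4254 and 4280 UMIs, were thinned in the same way. Cxcl2 was seen in 5.38% (1.77% to 12.1%) of the liver-file and 0.247% (0.0509% to 0.719%) of the spleen-file lymphocyte barcodes, and G0s2 in 1.08% and 0.0822%. The spleen-file neutrophil share of Cxcl2 was above the lymphocyte share of its own library. Il1b was seen in 2.15% and 0.740%, below the neutrophils of either library. Txnip, which lymphocytes express, was seen in 9.68% of liver-file and 21.0% of spleen-file lymphocyte barcodes, in each library above the neutrophils. In these lymphocyte barcodes S100a8 and S100a9 made up 1.10% and 0.276% of all UMIs. The 10 Kupffer cell markers summed to 2656 and 197 CPM in them, and the 5 erythroid markers to 29.1 and 2071 CPM. This background thus held RNA of other cells, and unequally between the libraries.

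**Figure D4:**
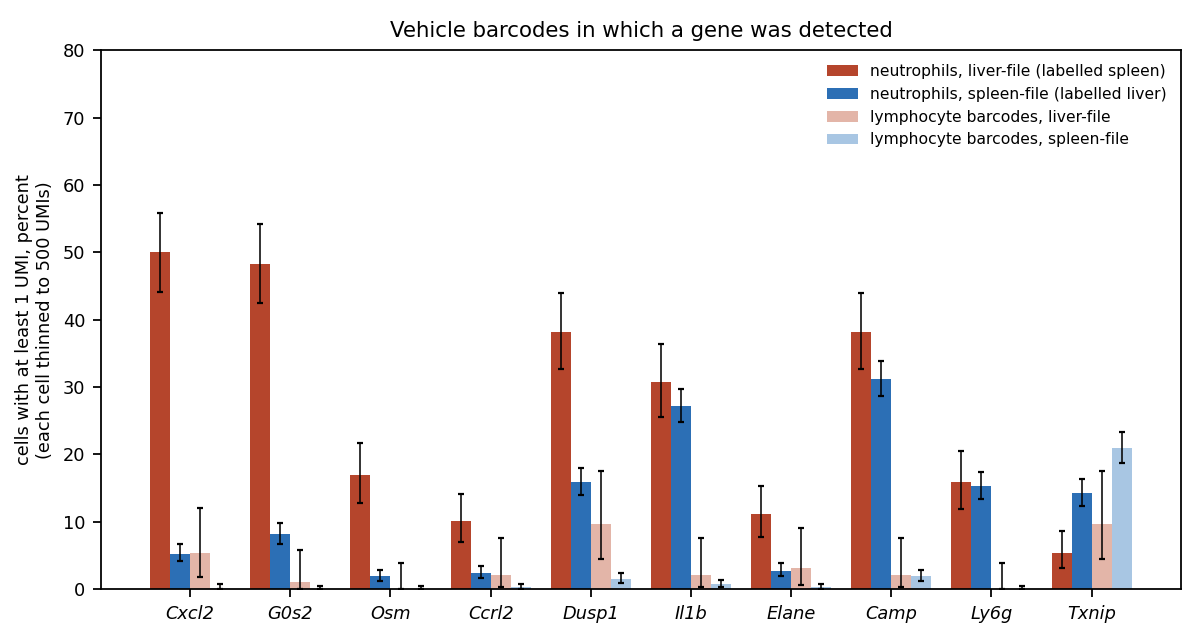
Percent of vehicle barcodes with at least 1 UMI of a gene after each was thinned to 500 UMIs, for neutrophils (dark bars) and T or B cell barcodes (pale bars) of the liver-file library (labelled spleen, red) and the spleen-file library (labelled liver, blue), with exact Clopper-Pearson 95% intervals. Cxcl2 and G0s2 stand near 50% in liver-file neutrophils and under 10% in the other bars, while Il1b, Camp and Ly6g are close between the neutrophils of the libraries.

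Many of the higher genes were also higher in liver-file lymphocyte barcodes. Of the 82 genes past 2-fold higher in neutrophils, 80 had a ratio above 0 in T or B cell barcodes and 54 were past 2-fold there. Over all 4981 tested genes, 2990 were above 0 in those barcodes and 13.1% were past 2-fold higher. All of the 15 highest genes were counted as past 2-fold higher there, but Acod1, at 1 and 0 UMIs, had no defined ratio. Where a gene had 0 UMIs in a library, counts under 3 were set at 3 for these tallies. The liver-file lymphocyte barcodes held 790570 UMIs and the spleen-file ones 6549413, so such genes tend to count as higher. These lymphocyte tallies therefore lean to the higher side. Cxcl2 had a log2 ratio of 5.32 between the lymphocyte barcodes, at levels of 238 and 5.95 CPM, and Camp, which was close to equal in neutrophils, had one of 3.88, at 457 and 31.0 CPM. RNA free in the suspension, doublets and the lymphocytes' own transcripts cannot be told apart here, and their part in the neutrophil values was not tested. Of the 77 lower genes, 40 had a ratio below 0 in the lymphocyte barcodes, beside 1991 of all 4981 genes.

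Transcripts of other cells were also present in the neutrophil barcodes. The 17 hepatocyte markers without Trf summed to 34.8 CPM in liver-file and 1.86 CPM in spleen-file neutrophils, with 2 and 15 of them at 0, the 10 Kupffer cell markers to 67.2 and 22.4 CPM, and the 7 B cell markers to 18.9 and 108 CPM. The 5 NK cell markers summed to 1.69 and 14.7 CPM, with 4 and 0 at 0, and the 5 erythroid markers to 175 and 283 CPM. The sums were 16.2 and 2.17 CPM for liver sinusoidal endothelium, 55.7 and 72.5 CPM for T cells, 162 and 136 CPM for monocytes and 13.5 and 8.38 CPM for platelets. Markers of dendritic cells, basophils and mast cells, eosinophils and 4T1 tumor cells each summed to at most 5.63 CPM in either library. The part of such transcripts in the compared values was not tested for each gene. Leaving out cells in which the other-cell markers held at least 0.5% of UMIs, a setting chosen after seeing the data, kept 291 and 1242 cells, and 76 of the 82 higher and 66 of the 77 lower genes stayed past 2-fold. At least 2 other-cell UMIs were in 210 of 296 and 998 of 1265 neutrophils. Without these, 86 and 267 cells and 1018 tested genes remained. There 21 of the 82 higher and 9 of the 77 lower genes were still tested and past 2-fold, while 78 and 75 kept their sign.

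Detection of the leading genes overlapped in single cells of the liver-file library, and little in those of the spleen-file library. Among liver-file neutrophils with G0s2 after thinning, 109 of 143 also had Cxcl2 (76.2%), against 39 of 153 without G0s2 (25.5%). Among those with Il1b, 72 of 91 had Cxcl2 (79.1%), against 76 of 205 without Il1b (37.1%). Cells with Camp carried less Cxcl2 (20 of 113, 17.7%) than cells without Camp (128 of 183, 69.9%), and 1 of 33 cells with Elane had Cxcl2. In spleen-file neutrophils Cxcl2 was seen in 8 of 103 cells with G0s2 (7.77%) and in 59 of 1162 without (5.08%). With and without Il1b it was seen in 24 of 344 (6.98%) and 43 of 921 (4.67%), and with and without Camp in 6 of 395 (1.52%) and 61 of 870 (7.01%). These values describe 1 pool per library, in cells thinned to a depth of 500 UMIs.

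Summed over the 15 highest genes, which were chosen from these cells, the median was 5.5 UMIs of 500 in liver-file and 0 UMIs in spleen-file vehicle neutrophils. At least 5 UMIs were seen in 156 of 296 (52.7%) and 18 of 1265 (1.42%), and 58 of 296 (19.6%) and 779 of 1265 (61.6%) had 0. The liver-file cells ranged from cells with none of these transcripts to 53 UMIs of 500. Because the genes were chosen as the highest in these liver-file cells, the shift between the vehicle groups is no separate result. The sum also joins genes seldom detected in the same cells, since 1 of 33 liver-file cells with Elane had Cxcl2, so it does not describe 1 graded trait.

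**Figure D5:**
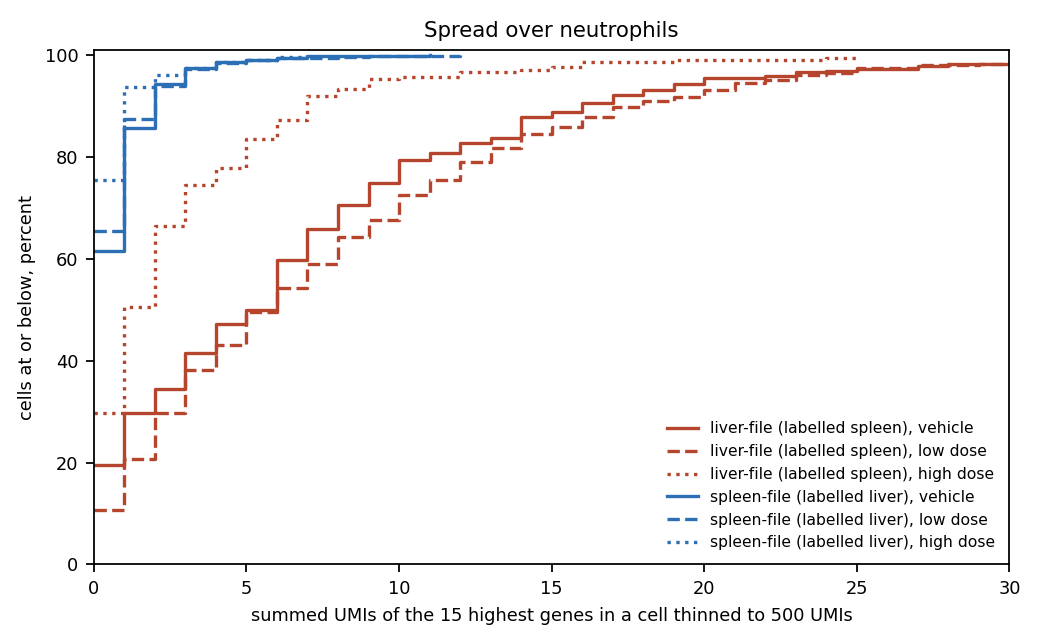
Cumulative percent of neutrophils (y axis) by the summed UMIs of the 15 highest genes in a cell thinned to 500 UMIs (x axis, cut at 30), for the liver-file library (labelled spleen, red) and the spleen-file library (labelled liver, blue) in the vehicle, low dose and high dose groups. The liver-file vehicle and low dose curves lie far to the right of every spleen-file curve, with medians of 5.5 and 6 UMIs, and the liver-file high dose curve lies between them with a median of 1. The genes were chosen as the highest in the liver-file vehicle cells, so the shift of the vehicle curves is no separate result.

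Neutrophils of the dosed pools in the same libraries give the same contrast in other mice, under drug and within the same droplet runs, and are set beside the vehicle values without being replicates of them. They numbered 554 and 1277 at the low dose and 212 and 237 at the high dose. The log2 ratio of Cxcl2 was 5.31 at the low and 4.50 at the high dose, that of G0s2 3.43 and 2.89, that of Osm 2.96 and 3.24 and that of Il1b 1.56 and 1.60. Of the 82 genes past 2-fold higher in the vehicle group, 79 were above 0 at the low and 80 at the high dose, and 43 and 47 were past 2-fold. Over all tested genes 43.6% and 58.6% were above 0 and 1.53% and 2.17% past 2-fold higher. Of the 77 lower genes, 66 and 60 were below 0, and 10 and 12 were past 2-fold lower, beside 0.502% and 0.522% of all tested genes.

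By group of genes, the chemokine ligand median was 3.19 at the low and 2.86 at the high dose beside 2.36 in the vehicle group, and the mitochondrial median 1.38 and 1.35 beside 1.21. The primary granule median was 0.65 and 0.32 beside 1.42. These differences between dose groups were not tested. The share of cells rich in primary granule genes was 6.14% (4.29% to 8.47%) in liver-file and 3.68% (2.72% to 4.86%) in spleen-file neutrophils at the low dose, and 10.8% and 8.02% at the high dose. These intervals cover the counting of cells within 1 pool, so they do not compare the groups. At the high dose the cells were deeper, with medians of 13439 and 20843 UMIs, and Cxcl2 was seen in 29.2% and 2.53% of thinned cells.

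Tissue, dissociation and library run changed together between the libraries and cannot be told apart. The study's methods describe digestion of the liver with collagenase followed by a density gradient, and grinding of the spleen through a strainer without enzyme, while the sample labels give the liver protocol for both. The methods name CD11b+ bead-isolated cells and the labels leukocytes, and T and B cell barcodes were present in both libraries.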

How the data were processed

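The authors deposited, for each of 2 droplet libraries, a filtered matrix of UMI counts, with genes and hashtags as rows and barcodes as columns, made by Cell Ranger (version 6.0.0 per the submitters' processing notes, 5.0.0 per the matrix headers) on mm10, with no normalization. Whether doublets were removed before deposit is not stated in those sources. Barcodes with 2 hashtags were dropped by the 3-fold margin and doublets within a hashtag were not called. The UMIs of each gene were added up over the neutrophils of a group and divided by their total (CPM, per 1000000 UMIs). Levels carry exact Poisson intervals, ratios exact conditional binomial intervals and shares exact Clopper-Pearson intervals, at 95%. Genes needed 200 UMIs over both libraries, and a gene was called past 2-fold. With 1 pool per group, no test was run. Cells were thinned to 500 UMIs with a fixed seed for shares.

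The named genes are the 15 highest and 15 lowest by the interval limit nearest 0, without S100a8, S100a9, mitochondrial genes and other-cell markers, the genes the study names, and examples from 27 gene lists, of which 5 symbols had no match in the files. The members, lists and rules were chosen with earlier results of these data known. Promoter windows are from RefSeq (GRCm38.p6), which held 12 of the 15 highest and 11 of the 15 lowest genes, and gene positions from GENCODE M21 on the same assembly. Depth was 561 to 46610 and 556 to 86436 UMIs per vehicle neutrophil. The ratio and its interval were run on simulated Poisson counts, the model that the interval assumes. That run had no clustering of UMIs in cells, so it cannot show how well the intervals hold for these data. Alternatives were other minimums, scalings, thresholds and subsets of cells. Python 3.11.15, numpy 2.4.6 and scipy 1.17.1 were used. Cell types other than neutrophils and lymphocytes were not analysed here. The values of 1 gene of these lists are not reported here.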

Additional observations from a re-analysis of the deposited data

Results flagged for a closer look

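Among the 30 highest and lowest genes, 3 had a ratio past 2-fold in the opposite direction in another dose group. With 1 pool per library and group, the difference between dose groups was not tested. Saa3 had a log2 ratio (liver-file over spleen-file) of -1.03 in vehicle and 1.06 in low dose neutrophils. Cd74 had -1.09 in vehicle, 1.14 in low dose and 3.34 in high dose neutrophils, and H2-Aa had -1.27 in vehicle and 3.02 in high dose neutrophils. Of the Cd74 UMIs in vehicle neutrophils, the top 5% of cells held 92.0% in the liver-file and 93.4% in the spleen-file library.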

How the results depend on the processing

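All 15 highest genes except Ccl5 and Ctsg, and all 15 lowest, kept their direction under the 13 alternatives run for single genes, and 12 and 8 of them stayed past 2-fold in all. Ccl5 turned to -1.83 with a hashtag margin of 10 times, -0.27 without barcodes with 2 other-cell UMIs and -0.66 at 2000 to 10000 UMIs, and Ctsg to -0.12 without cells rich in primary granule genes, a setting chosen after seeing the data. The NK cell list (1 tested gene) turned from -2.97 to 0.36 at S100 genes of at least 20%, 0.32 without barcodes with 2 other-cell UMIs, 0.77 in granule-rich cells, 1.74 at 2000 to 10000 UMIs and 1.28 with other-cell markers under 0.5%, the last chosen after seeing the data. Of the tested genes, 1.65% were past 2-fold higher and 1.55% lower. At a minimum of 50 UMIs these shares were 2.49% and 3.74% of 8057 genes, and at 1000 UMIs 2.08% and 0.758% of 1583 genes. They were 1.21% and 0.932% at S100 genes of at least 20%, 5.5% and 8.64% (of 1018 genes in 86 and 267 cells) without barcodes with 2 other-cell UMIs, 1.39% and 0.614% in granule-rich cells, and 2.63% and 7.85% at 2000 to 10000 UMIs. The higher share was 4.09% (219 genes) at S100 genes of at least 5%, and the lower share 4.76% (237 genes) with the mean of each cell's CPM and 3.26% (87 genes) with Camp, Ngp and Ltf under 1%. The median moved from -0.06 to -0.17 without the 20 most abundant genes, -0.20 in cells with Camp, Ngp and Ltf under 1% and -0.33 at 2000 to 10000 UMIs. Minimums and subsets of cells change which genes are tested; the cause was otherwise not tested. No paired analysis was possible because each group holds 1 pool and the result comes from no test. The 296 liver-file cells limit genes with few UMIs most.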
